A study of Mus musculus with 11 samples.

Results

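The class 3 semaphorins are secreted guidance proteins, and the 10 genes described here are 6 of their own genes, Sema3a to Sema3f, and 4 genes of their receptors, Nrp1, Nrp2, Plxna1 and Plxnd1. They were chosen by symbol from the 20145 symbols matched to the array, on which 14 probes read them, and the family was picked because Sema3b was known to be strongly raised in the mutant livers. The change of Sema3b against WT is therefore described without a test. Of the 10 genes, 8 had a probe well above background on at least 3 of the 11 arrays and entered the tests. Sema3a and Sema3e did not.

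The arrays measured whole liver tissue of male mice aged 22 to 40 days, of a hybrid strain that is mostly B6SJL with a smaller share of 129S6. There were 4 livers labelled β-catΔEx3:Myc, 3 labelled β-catΔEx3 and 4 labelled WT, with no treatment in any group. β-catenin is the effector of canonical Wnt signalling, and its exon 3 encodes the residues whose phosphorylation leads to its breakdown, so the shortened protein is stable. The transcription factor Myc promotes cell growth. The series presents the mutants as mouse models of hepatoblastoma, a childhood liver cancer. Its design line speaks of tumour-bearing livers for all samples, WT included, and lists the Myc livers only by c-Myc expression, so that these also carry the β-catenin change rests on their genotype label. The promoter or Cre behind each allele, and whether the sampled pieces were tumour, are not given in the sources used here.

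Class 3 semaphorins bind neuropilins, co-receptors with short cytoplasmic tails, which pair with plexins that carry the signal into the cell and act on small GTPases and integrins. Sema3e is the member known to bind Plxnd1 directly. Neuropilins also bind vascular endothelial growth factors, and in liver Nrp1, Nrp2 and Plxnd1 are known from the endothelium of sinusoids and other vessels, while Sema3b and Sema3f are known as inhibitors of tumour growth in several human cancers.

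All levels below are log2 of the processed signal relative to the upper quartile of the same array, so 0 is a signal equal to that quartile. Levels of different probes are not set against each other. The upper quartile was 227 to 354.3 scanner units, 49% to 53.4% of probes passed as well above background and none was saturated. A call means an adjusted p under 0.05 from limma, 2-sided and Benjamini-Hochberg adjusted over all 22283 items tested. The arrays sat on 4 slides. WT replicates 1 to 3 had slide 1 to themselves, and β-catΔEx3:Myc replicate 3 was alone on slide 3. Slide 2 held β-catΔEx3:Myc replicates 1 and 2 with β-catΔEx3 replicates 1 and 2. Slide 4 held β-catΔEx3:Myc replicate 4, β-catΔEx3 replicate 3 and WT replicate 4, from mice aged 29, 30 and 31 days. A blocked value has slide as a term. It compares the mutants with WT through slide 4 alone.

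Myc signal was 3.37 ± 0.68 log2 units higher in β-catΔEx3:Myc than in WT livers (limma, SE, adjusted p = 0.00277). It differed by 1.87 ± 0.73 between β-catΔEx3:Myc and β-catΔEx3 livers (adjusted p = 0.395) and 2.83-fold between β-catΔEx3 and WT livers (adjusted p = 0.132). Neither passed the test, and all β-catΔEx3:Myc livers were above all β-catΔEx3 livers. Ctnnb1, whose probe need not lie in exon 3, differed by -0.17 ± 0.14 between β-catΔEx3:Myc and WT livers (adjusted p = 0.378). In a principal component analysis the third β-catΔEx3:Myc array stood apart from its group on the second component (9.61% of the variance), at 8.64, against -71.4 to -30.1 for the other β-catΔEx3:Myc arrays and 28.5 to 52.8 for β-catΔEx3 arrays. On the first component (56.3%) it lay among its group. Results that rest on it are given without it too. Markers of hepatocytes, the main cells of liver, were all measured, with summed signals of 3490 to 5340 times the upper quartile in β-catΔEx3:Myc, 3930 to 4670 in β-catΔEx3 and 5780 to 7200 in WT livers.

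Sema3b was the ligand that differed most. Its level was 3.73, 3.39, 3.67 and 2.93 in the 4 β-catΔEx3:Myc livers, 4.16, 4.18 and 5.18 in the 3 β-catΔEx3 livers, and -3.60, -4.39, -3.66 and -2.67 in the 4 WT livers. In scanner units this was 2150 to 4690 in β-catΔEx3:Myc, 4900 to 10400 in β-catΔEx3 and 13.7 to 35.7 in WT livers. The 3 groups did not overlap: every mutant liver was far above every WT liver, and every β-catΔEx3:Myc liver was below every β-catΔEx3 liver. WT replicate 2 was not well above background.

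The difference in Sema3b was 7.01 ± 0.37 log2 units (SE), 129-fold, between β-catΔEx3:Myc and WT livers and 8.09 ± 0.39, 272-fold, between β-catΔEx3 and WT livers. It ranked 13 from the top of 22283 items in either comparison. The fold depends on how the dim WT signal is read. With normexp background correction, an alternative method, the difference was 4.95 (30.8-fold) for β-catΔEx3:Myc against WT and 5.97 (62.8-fold) for β-catΔEx3 against WT. With slide as a block it was 6.15 for β-catΔEx3:Myc and 7.31 for β-catΔEx3 against WT, and between arrays of slide 4 alone it was 5.60 for β-catΔEx3:Myc and 7.85 for β-catΔEx3.

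Sema3d, a ligand known from heart and vessel development, was the other ligand with a large difference. Its level was -6.59, -6.44, -5.55 and -6.07 in β-catΔEx3:Myc livers, -6.23, -6.23 and -4.32 in β-catΔEx3 livers, and -3.86, -3.85, -3.16 and -3.39 in WT livers. All 4 WT arrays were well above background and none of the 7 mutant arrays was, so the gene passed the filter on dim probes through its WT arrays alone. A lower value in the mutants is therefore built into its selection, and its p-values are no independent support for that direction. The measured difference was -2.60 in β-catΔEx3:Myc livers (mean -6.16 against -3.56 in WT; limma, adjusted p = 0.000811). It was -2.03 in β-catΔEx3 livers (mean -5.59 against -3.56 in WT; adjusted p = 0.00581). With the mutants read at no less than the background limit of each array, Sema3d was 2.06-fold lower in β-catΔEx3:Myc and 2.41-fold lower in β-catΔEx3 livers. These folds were not tested and are no lower bounds, since normexp correction, given below, made them smaller. The β-catΔEx3 call was lost when slide was a term (adjusted p = 0.135), and without β-catΔEx3 replicate 3 the measured difference was -2.66 instead of -2.03. Within slide 4 the measured difference was -2.67 for β-catΔEx3:Myc and -0.93 for β-catΔEx3. With normexp correction Sema3d was 1.35-fold lower in β-catΔEx3:Myc and 1.29-fold lower in β-catΔEx3 than in WT livers.

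Sema3f, a ligand that binds mainly Nrp2, was bright in every liver. Its level was 1.75, 2.18, 1.46 and 1.99 in β-catΔEx3:Myc livers, 2.07, 2.18 and 2.29 in β-catΔEx3 livers, and 2.29, 2.32, 2.51 and 2.29 in WT livers. All 4 β-catΔEx3:Myc livers were below all 4 WT livers by a small step, and β-catΔEx3 livers overlapped with WT. Sema3f fell by 0.51 ± 0.16 log2 units, 1.42-fold, in β-catΔEx3:Myc against WT (limma, SE, adjusted p = 0.0294). This call was lost when any of 5 arrays was left out (adjusted p = 0.0509 to 0.0806), namely WT replicate 1, 2 or 3 or β-catΔEx3:Myc replicate 1 or 3. It was lost with slide as a block too (-0.25, adjusted p = 0.555), and the difference within slide 4 was -0.30. β-catΔEx3 and WT livers differed by -0.17 ± 0.18 (adjusted p = 0.491), with a 95% interval of -0.56 to 0.23.

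Sema3c, a ligand that binds both neuropilins, was dim. Its brighter probe read -4.59, -3.07, -3.13 and -3.22 in β-catΔEx3:Myc livers, -2.53, -2.95 and -2.59 in β-catΔEx3 livers, and -3.78, -3.42, -2.72 and -3.41 in WT livers. The first β-catΔEx3:Myc array was not well above background. The groups overlapped in each comparison with WT, and every β-catΔEx3:Myc liver was below every β-catΔEx3 liver. Neither difference from WT passed the test, at -0.17 ± 0.35 for β-catΔEx3:Myc (adjusted p = 0.721) and 0.64 ± 0.37 for β-catΔEx3 (adjusted p = 0.203). The second Sema3c probe was not well above background on any array.

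Sema3e, the direct ligand of Plxnd1, was well above background on 1 of the 11 arrays, the first β-catΔEx3 array. Its level was -5.22, -6.34, -6.95 and -6.35 in β-catΔEx3:Myc livers, -3.89, -5.79 and -4.72 in β-catΔEx3 livers, and -6.74, -6.70, -6.54 and -6.49 in WT livers. The β-catΔEx3 signals were above all WT signals, on arrays where all but 1 of them were in the background, so no test was made. Neither probe of Sema3a, a ligand that repels growing axons through Nrp1, was well above background on any array.

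**Figure D1:**
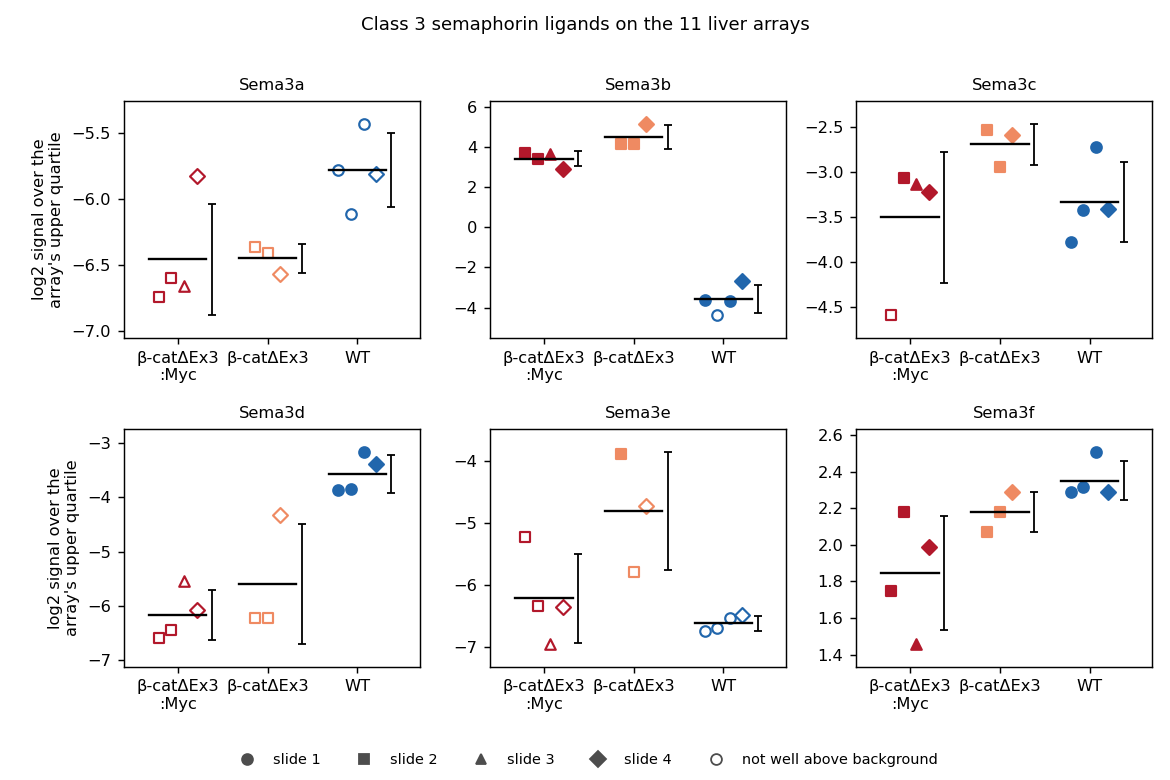
Log2 signal of the ligand genes relative to the upper quartile of each array, 1 panel a gene (the brightest probe), each on its own axis. Each point is 1 liver (4 β-catΔEx3:Myc, 3 β-catΔEx3, 4 WT, left to right), its shape is the slide, horizontal lines are group means and the bars beside them are 1 SD either way. Open points were not well above background. Sema3b is between 2.93 and 5.18 in the mutants and between -4.39 and -2.67 in WT, and Sema3d has filled points in WT alone.

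Of the 4 receptor genes, 3 were called lower in β-catΔEx3:Myc livers, where 17.1% of all items were called lower. Nrp2 alone was called lower in β-catΔEx3 livers, where 15.5% of all items were. Nrp1, Nrp2 and Plxnd1 were lowest in β-catΔEx3:Myc, intermediate in β-catΔEx3 and highest in WT livers, with no overlap at either step by their brighter probes. This order was seen in 1.06% of all items. Plxna1 had its highest mean in β-catΔEx3:Myc livers.

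β-catenin acts at promoters through Tcf/Lef factors and Myc through E-boxes, and the part of these motifs in the results was not tested. Of the genes called lower in β-catΔEx3:Myc livers, 4 have an entry in the RefSeq table (build GRCm38.p6). Sema3d is among the 4, although its lower value is built into its selection. The promoter windows of the 4 genes are shown. Each runs 5′ to 3′ on the strand of the gene, from 250 bases before to 50 after its start. Capitals mark a Tcf/Lef motif, which was searched on both strands as CTTTGAA, with the spelling CTTTGAT counted too, and likewise with the spelling CTTTGTA or the spelling CTTTGTT. Sema3d is at chr5:12382916-12383215 on the plus strand, Nrp1 at chr8:128358823-128359122 on the plus strand, Nrp2 at chr1:62703067-62703366 on the plus strand and Plxnd1 at chr6:115994956-115995255 on the minus strand.
Sema3d: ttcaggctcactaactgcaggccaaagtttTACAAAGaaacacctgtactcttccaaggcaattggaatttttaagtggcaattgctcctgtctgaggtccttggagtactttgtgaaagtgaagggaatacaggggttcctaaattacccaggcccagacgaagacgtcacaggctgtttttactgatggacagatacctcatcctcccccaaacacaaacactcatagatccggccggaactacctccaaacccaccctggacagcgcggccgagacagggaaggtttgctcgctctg
Nrp1: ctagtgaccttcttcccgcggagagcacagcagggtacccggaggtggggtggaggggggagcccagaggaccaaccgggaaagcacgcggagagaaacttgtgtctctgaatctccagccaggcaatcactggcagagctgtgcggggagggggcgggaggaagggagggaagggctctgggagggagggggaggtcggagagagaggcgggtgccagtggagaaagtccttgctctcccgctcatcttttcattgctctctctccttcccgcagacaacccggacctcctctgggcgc
Nrp2: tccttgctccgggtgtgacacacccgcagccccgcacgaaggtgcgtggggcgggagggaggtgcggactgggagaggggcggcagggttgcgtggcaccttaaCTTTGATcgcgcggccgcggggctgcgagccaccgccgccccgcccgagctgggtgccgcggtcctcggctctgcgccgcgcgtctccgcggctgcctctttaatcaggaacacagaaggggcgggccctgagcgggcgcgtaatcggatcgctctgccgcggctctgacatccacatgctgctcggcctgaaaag
Plxnd1: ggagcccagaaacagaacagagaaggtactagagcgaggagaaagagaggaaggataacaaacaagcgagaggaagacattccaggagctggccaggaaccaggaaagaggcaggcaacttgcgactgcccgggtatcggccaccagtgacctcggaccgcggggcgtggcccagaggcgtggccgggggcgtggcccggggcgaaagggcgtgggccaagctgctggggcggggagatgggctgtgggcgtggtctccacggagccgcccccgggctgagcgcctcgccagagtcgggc
Relative to the start, the motif stood at position -220 in Sema3d, as CTTTGTA on the opposite strand, and at position -146 in Nrp2, as CTTTGAT. The windows of Nrp1 and Plxnd1 hold no such letters. Among all 32851 mouse windows 16.9% hold the motif, and 7.15% hold the E-box letters CACGTG, which none of the 4 has. In all, 7 of the 10 genes matched an entry. Sema3c and Sema3e also hold a Tcf/Lef motif, and Sema3e holds an E-box. Sema3b, Sema3f and Plxna1 had no entry.

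Nrp1 levels were -2.99, -2.77, -1.78 and -2.01 in β-catΔEx3:Myc livers, -1.60, -1.14 and -0.58 in β-catΔEx3 livers, and -0.34, -0.56, -0.30 and 0.06 in WT livers. The narrowest gap, between the highest β-catΔEx3 and the lowest WT liver, was slight. Nrp1 fell by 2.10 ± 0.31 log2 units, 4.3-fold, in β-catΔEx3:Myc against WT (limma, SE, adjusted p = 0.000463), and the call held with slide as a block (-2.09, adjusted p = 0.00858). Within slide 4 the difference was -2.07. The difference between β-catΔEx3 and WT, -0.82 ± 0.33, missed the threshold (adjusted p = 0.0745). It passed without β-catΔEx3 replicate 3 (-1.08, adjusted p = 0.0402), with a quartile taken over probes above background on all arrays (adjusted p = 0.0421) and under normexp correction (-0.60, adjusted p = 0.0353).

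Nrp2 had 2 kept probes. The brighter read 0.80, 0.72, 0.41 and 0.98 in β-catΔEx3:Myc livers, 1.44, 1.59 and 1.63 in β-catΔEx3 livers, and 2.68, 2.67, 2.59 and 2.57 in WT livers. The groups were tight and far apart. Nrp2 fell by 1.90 ± 0.14 log2 units, 3.73-fold, in β-catΔEx3:Myc (limma, SE, adjusted p = 9.73e-06) and by 1.08 ± 0.15, 2.11-fold, in β-catΔEx3 livers (adjusted p = 0.00058), each against WT. Either call held with slide as a block, at -1.62 in β-catΔEx3:Myc (adjusted p = 0.00784) and -0.91 in β-catΔEx3 (adjusted p = 0.0404), and within slide 4 the differences were -1.59 in β-catΔEx3:Myc and -0.94 in β-catΔEx3. The dimmer probe read -2.65 to -2.42 in β-catΔEx3:Myc, -1.96 to -1.67 in β-catΔEx3 and -0.97 to -0.78 in WT livers, with differences from WT of -1.69 in β-catΔEx3:Myc and -0.97 in β-catΔEx3 livers.

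Plxnd1, a plexin known from vessel patterning, read 2.54, 2.57, 1.55 and 2.64 in β-catΔEx3:Myc livers, 2.94, 3.17 and 3.80 in β-catΔEx3 livers, and 4.15, 4.00, 4.16 and 3.95 in WT livers by its brighter probe. The third β-catΔEx3:Myc liver was the lowest of all. Plxnd1 fell by 1.74 ± 0.26 log2 units, 3.34-fold, in β-catΔEx3:Myc against WT (limma, SE, adjusted p = 0.00058), and by 1.09 with slide as a block, where the adjusted p of 0.0552 missed the threshold. Within slide 4 it was -1.31. Without the third β-catΔEx3:Myc liver it fell by 1.48 (adjusted p = 0.000641). The difference between β-catΔEx3 and WT was -0.76 ± 0.28 (adjusted p = 0.0573). It passed without β-catΔEx3 replicate 3 (-1.01, adjusted p = 0.0268), without β-catΔEx3:Myc replicate 3 (adjusted p = 0.0151), and in 4 processing alternatives (adjusted p = 0.0304 to 0.0401), and was -0.37 with slide as a block and -0.15 within slide 4. The dimmer Plxnd1 probe fell by 1.37 ± 0.18 in β-catΔEx3:Myc (adjusted p = 0.000234) and differed by -0.41 ± 0.19 in β-catΔEx3 livers (adjusted p = 0.113), where the highest β-catΔEx3 liver, at 0.02, overlapped with the lowest WT liver, at -0.05.

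Plxna1, a signalling partner of neuropilins for several ligands, read 0.17, 0.22, 0.44 and 0.43 in β-catΔEx3:Myc livers, -0.12, 0.38 and -0.13 in β-catΔEx3 livers, and -0.71, -0.62, -0.53 and -0.01 in WT livers. WT replicate 4, on slide 4, was the highest WT liver and lay among the β-catΔEx3 values. Plxna1 rose by 0.78 ± 0.19 log2 units, 1.72-fold, in β-catΔEx3:Myc against WT (limma, SE, adjusted p = 0.00715), a call lost with slide as a block (0.28, adjusted p = 0.575), and by 0.44 within slide 4. The difference between β-catΔEx3 and WT, 0.51 ± 0.20, missed the threshold (adjusted p = 0.0712) and passed without WT replicate 4 (0.66, adjusted p = 0.0194). Within slide 4 it was -0.12, of the opposite sign.

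**Figure D2:**
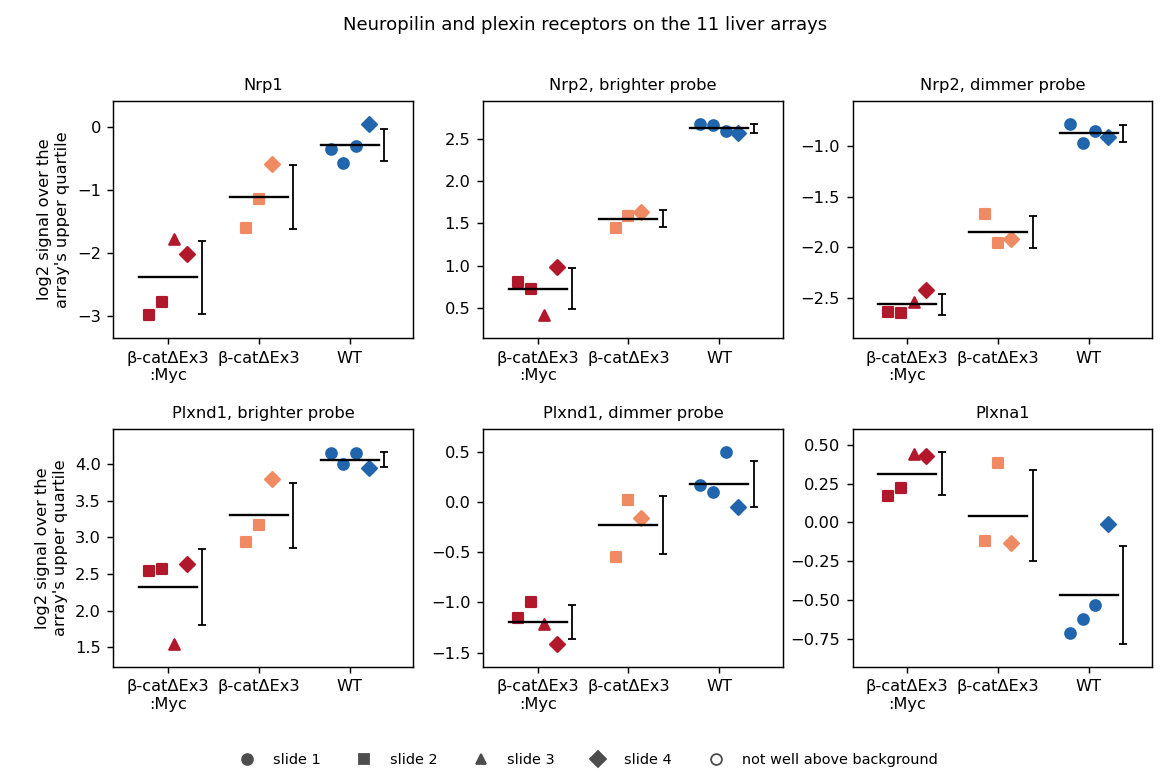
Log2 signal of the receptor genes relative to the upper quartile of each array, 1 panel a probe, each on its own axis. Each point is 1 liver (4 β-catΔEx3:Myc, 3 β-catΔEx3, 4 WT, left to right), its shape is the slide, horizontal lines are group means and the bars beside them are 1 SD either way. The brighter Nrp2 probe is at 0.41 to 0.98 in β-catΔEx3:Myc, 1.44 to 1.63 in β-catΔEx3 and 2.57 to 2.68 in WT, Nrp1 and the brighter Plxnd1 probe have the same order without overlap, and the means of Plxna1 have the opposite order.

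Of the 7 genes tested against WT, Sema3b left out, 6 were called in β-catΔEx3:Myc livers, where 42.4% of all items were called. Plxna1 was higher and Sema3d, Sema3f, Nrp1, Nrp2 and Plxnd1 were lower. Lower calls made up 17.1% and higher calls 25.3% of all items. In β-catΔEx3 livers 2 of the 7, Sema3d and Nrp2, were called, both lower, where 37.1% of all items were called and 15.5% were called lower. The median difference of the 7 genes was -1.74 in β-catΔEx3:Myc and -0.76 in β-catΔEx3 livers, beside 0.14 for β-catΔEx3:Myc and 0.10 for β-catΔEx3 over all items. Under the slide block 3 of the 7 were called in β-catΔEx3:Myc and 1 in β-catΔEx3. All β-catΔEx3:Myc livers were below all WT livers in 5 of the 7 genes (17.5% of all items) and above them in 1 (24.9%), and all β-catΔEx3 livers were below all WT livers in 4 (18.8%), the called genes with Nrp1 and Plxnd1. Without Sema3d, which passed the filter only through WT arrays, 5 of 6 genes were called in β-catΔEx3:Myc (1 higher, 4 lower, median -1.12) and 1 of 6, Nrp2, in β-catΔEx3 (median -0.46). Then 2 and 1 were called under the slide block in β-catΔEx3:Myc and β-catΔEx3, and all livers lay below WT in 4 genes in β-catΔEx3:Myc and in 3 in β-catΔEx3. Both comparisons use the same 4 WT arrays.

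Between the mutants, no gene of the 8 was called by limma, where 0.251% of all items were called, and 4 had an unadjusted p under 0.05. In 5 of 8 genes, Sema3b, Sema3c, Nrp1, Nrp2 and Plxnd1, all 4 β-catΔEx3:Myc livers were below all 3 β-catΔEx3 livers, as in 4.19% of all items. Sema3b was lower by 1.08 ± 0.39 log2 units in β-catΔEx3:Myc (adjusted p = 0.35), with a 95% interval of -1.95 to -0.20. Within slide 4 that difference was -2.25 and within slide 2 it was -0.61. Nrp1 differed by -1.28 ± 0.33 (adjusted p = 0.156), by -1.43 within slide 4 and -1.51 within slide 2, and passed with slide as a block (-1.49, adjusted p = 0.0224). Nrp2 differed by -0.82 ± 0.15 (adjusted p = 0.0605), by -0.65 within slide 4 and -0.76 within slide 2, and passed in 4 alternatives (adjusted p = 0.0447 to 0.0499). Plxnd1 differed by -0.98 ± 0.28 (adjusted p = 0.21), by -1.16 within slide 4 and -0.50 within slide 2. The order β-catΔEx3:Myc below β-catΔEx3 below WT, with no overlap at either step, was shown by 3 of the 8 genes by their brighter probes. It was seen in 236 of 22283 items (1.06%).

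**Figure D3:**
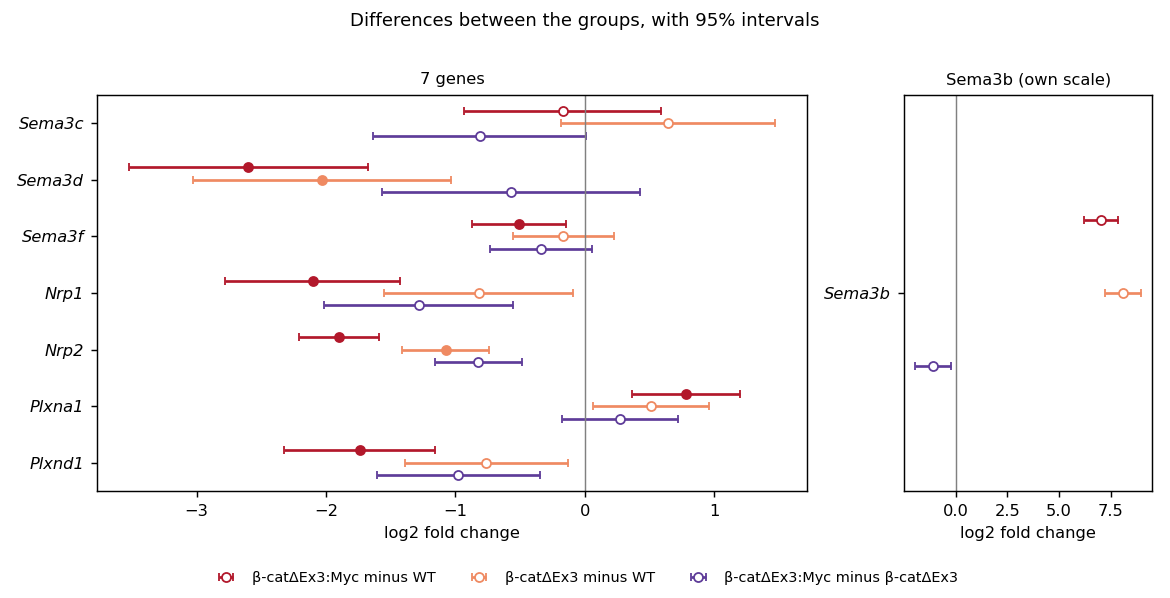
Log2 fold changes (points) with 95% confidence intervals from limma (bars) for β-catΔEx3:Myc minus WT, β-catΔEx3 minus WT and β-catΔEx3:Myc minus β-catΔEx3. Filled points were called, and Sema3b, on its own axis, is a description against WT. Sema3b lies at 7.01 and 8.09 against WT, Nrp1, Nrp2 and Plxnd1 lie below 0 in all 3 comparisons, and Plxna1 lies above 0.

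Most markers of endothelial cells were lower in the mutants than in WT livers, as were Nrp1, Nrp2 and Plxnd1, but not Plxna1. Of 16 endothelial markers, 13 fell in β-catΔEx3:Myc and 11 in β-catΔEx3 livers against WT by limma, and none rose. Among all items, 17.1% were called lower in β-catΔEx3:Myc and 15.5% in β-catΔEx3. The median of the 16 was -1.52 in β-catΔEx3:Myc and -0.83 in β-catΔEx3. Their summed signal was 37.6 to 59.8 times the upper quartile in β-catΔEx3:Myc, 73.6 to 99.1 in β-catΔEx3 and 159 to 186 in WT livers. The same step order without overlap was shown by 10 of the 16 and by 1.06% of all items. Fcgr2b, an immunoglobulin receptor of sinusoidal endothelium, fell by 3.09 ± 0.33 in β-catΔEx3:Myc (limma, SE, adjusted p = 8.35e-05) and by 1.63 ± 0.36 in β-catΔEx3 livers (adjusted p = 0.00533). Clec4g, a lectin of the same cells, fell by 2.67 ± 0.22 in β-catΔEx3:Myc (adjusted p = 1.89e-05) and fell by 1.39 ± 0.24 in β-catΔEx3 livers (adjusted p = 0.00158). These markers had the largest falls of the list, while Lyve1, Vwf and Erg were called in neither mutant. Pecam1 and Emcn were not called in β-catΔEx3. Under the slide block 6 of the 16 were called in β-catΔEx3:Myc, Clec4g among them and Fcgr2b not (adjusted p = 0.0542), and none in β-catΔEx3. In whole liver, fewer cells of a type and less RNA per cell cannot be told apart, and the part of the endothelial markers in the receptor results was not tested.

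Markers of other cell types of the liver fell as well. Of 16 stellate and mesenchymal markers, 13 fell in β-catΔEx3:Myc and 8 in β-catΔEx3 livers, with summed signals of 53.7 to 86.4 in β-catΔEx3:Myc, 111 to 133 in β-catΔEx3 and 189 to 290 in WT livers. Ngfr, a neurotrophin receptor of stellate cells, fell by 2.99 ± 0.42 in β-catΔEx3:Myc (adjusted p = 0.000374), a call lost under the slide block (adjusted p = 0.0944). All 10 measured macrophage markers fell in either mutant, with summed signals of 18.4 to 68.4 in β-catΔEx3:Myc, 21.5 to 62.8 in β-catΔEx3 and 245 to 374 in WT livers, and the mutants overlapped. Timd4, a receptor of resident macrophages for dying cells, fell by 4.64 ± 0.96 in β-catΔEx3:Myc (adjusted p = 0.00323) and fell by 4.30 ± 1.04 in β-catΔEx3 livers (adjusted p = 0.00874). Timd4 was well above background on only 2 of 4 β-catΔEx3:Myc and 2 of 3 β-catΔEx3 arrays, so the size of its fall is uncertain. Under the slide block 4 stellate markers were called in β-catΔEx3:Myc and 1 in β-catΔEx3, and none of the macrophage markers. Of 10 hepatocyte markers, 1 rose and 4 fell in β-catΔEx3:Myc and 5 fell in β-catΔEx3 livers. Of all items, 42.4% were called in β-catΔEx3:Myc and 37.1% in β-catΔEx3. Among the hepatocyte markers Apoa1, a lipoprotein component, fell by 1.27 ± 0.19 in β-catΔEx3:Myc (adjusted p = 0.000593) and fell by 1.66 ± 0.21 in β-catΔEx3 livers (adjusted p = 0.000305). Under the slide block 1 hepatocyte marker was called in β-catΔEx3:Myc and 2 in β-catΔEx3, all lower, with Apoa1 in either. The part of these markers in the semaphorin results was not tested either.

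**Figure D4:**
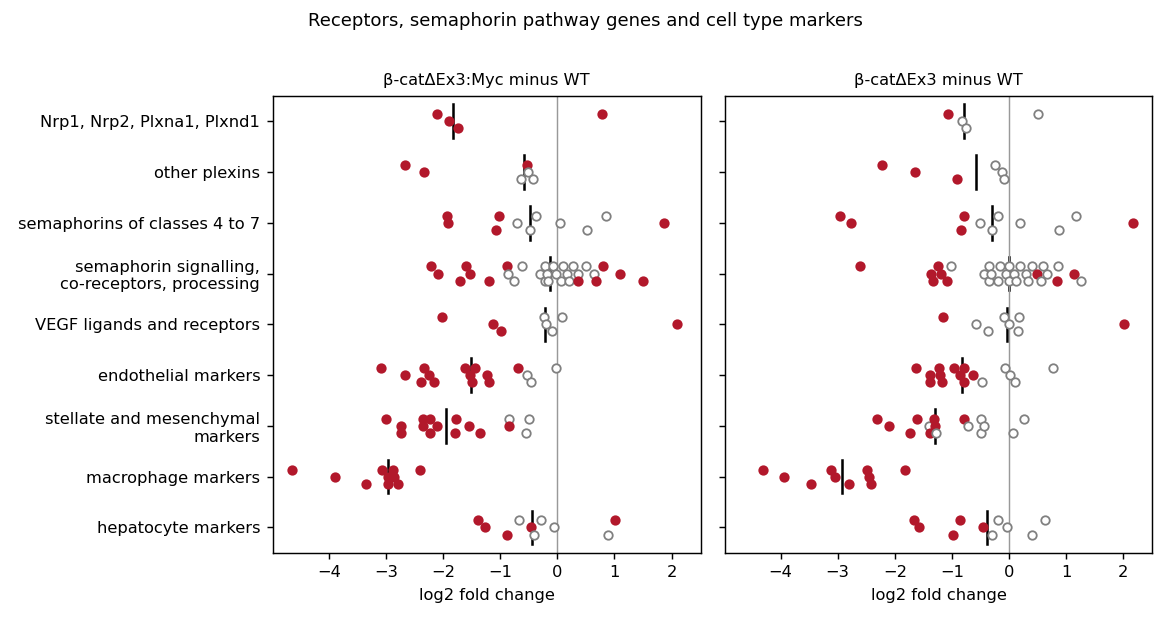
Log2 fold changes of single genes (points) in β-catΔEx3:Myc minus WT (left) and β-catΔEx3 minus WT (right), 1 line of points for each gene list, with filled points for called genes and a vertical bar at the median of the list. The median of the endothelial markers is -1.52 in β-catΔEx3:Myc and -0.83 in β-catΔEx3, and all macrophage points are filled and below 0.

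The other genes of the pathway did not follow one direction. Among 6 tested plexins outside the 4 receptors, 3 fell and none rose in either mutant against WT (medians -0.59 in β-catΔEx3:Myc and -0.58 in β-catΔEx3). Of all items, 17.1% were called lower in β-catΔEx3:Myc and 15.5% in β-catΔEx3. Plxnc1, a receptor of Sema7a, fell by 2.67 ± 0.19 in β-catΔEx3:Myc (limma, SE, adjusted p = 6.78e-06) and fell by 1.64 ± 0.20 in β-catΔEx3 livers (adjusted p = 0.000259). Plxna2, which like Plxna1 signals with neuropilins, fell by 2.33 ± 0.30 in β-catΔEx3:Myc (adjusted p = 0.000242) and fell by 2.23 ± 0.32 in β-catΔEx3 livers (adjusted p = 0.000669). Plxnb2 was called in β-catΔEx3:Myc (-0.53 ± 0.17, adjusted p = 0.0258), and Plxnb1 was called in β-catΔEx3 (-0.91 ± 0.24, adjusted p = 0.0129). The difference between the mutants was called for neither. Under the slide block Plxnc1 and Plxna2 were called in β-catΔEx3:Myc and Plxna2 in β-catΔEx3, while Plxnc1 in β-catΔEx3 (adjusted p = 0.0632), Plxnb2 (adjusted p = 0.0768) and Plxnb1 (adjusted p = 0.18) were lost. Sema3g, the seventh class 3 ligand, was not well above background on any array.

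Of 11 tested semaphorins of other classes, 1 rose and 4 fell in either mutant, where 42.4% of all items were called in β-catΔEx3:Myc and 37.1% in β-catΔEx3. Sema4b, a membrane-bound semaphorin, rose by 1.88 ± 0.33 in β-catΔEx3:Myc (limma, SE, adjusted p = 0.00125) and by 2.17 ± 0.35 in β-catΔEx3 livers (adjusted p = 0.00112). Sema4c, which binds Plxnb2, fell by 1.93 ± 0.42 in β-catΔEx3:Myc (adjusted p = 0.00445) and fell by 2.96 ± 0.46 in β-catΔEx3 livers (adjusted p = 0.000869). Sema6d, a transmembrane ligand of Plxna1, fell by 1.91 ± 0.34 in β-catΔEx3:Myc (adjusted p = 0.00136) and fell by 2.76 ± 0.36 in β-catΔEx3 livers (adjusted p = 0.00039). Sema4c and Sema6d were called in either mutant under the slide block, and Sema4b in neither (adjusted p = 0.115 in β-catΔEx3:Myc and 0.0798 in β-catΔEx3). In β-catΔEx3 the blocked difference was -3.68 for Sema4c and -3.68 for Sema6d, larger than without the block. The block rests on WT replicate 4, where the summed signal of these semaphorins was 357 times the upper quartile, against 162 to 194 in the other WT livers.

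Of 30 tested genes of signalling, co-receptors and processing, 5 rose and 7 fell in β-catΔEx3:Myc livers and 3 rose and 6 fell in β-catΔEx3 livers, with medians of -0.12 in β-catΔEx3:Myc and -0.002 in β-catΔEx3. Over all items 42.4% were called in β-catΔEx3:Myc and 37.1% in β-catΔEx3. L1cam, among the 6, was well above background on 3 of 4 WT arrays and on no mutant array. It passed the filter on dim probes through WT alone, so its lower value is built into its selection. Gipc1, an adaptor that binds the neuropilin tail, rose by 1.09 ± 0.14 in β-catΔEx3:Myc (limma, SE, adjusted p = 0.000232) and by 1.14 ± 0.15 in β-catΔEx3 livers (adjusted p = 0.000419). Rras, a small GTPase that plexins inactivate, rose by 0.79 ± 0.20 in β-catΔEx3:Myc (adjusted p = 0.0102) and rose by 0.84 ± 0.22 in β-catΔEx3 livers (adjusted p = 0.0137). Fyn, a kinase in Sema3a signalling in neurons, fell by 2.08 ± 0.19 in β-catΔEx3:Myc (adjusted p = 3.83e-05) and fell by 1.33 ± 0.21 in β-catΔEx3 livers (adjusted p = 0.000995). Dpysl5, a collapsin response mediator protein of the same pathway, fell by 1.70 ± 0.38 in β-catΔEx3:Myc (adjusted p = 0.00498) and fell by 2.62 ± 0.41 in β-catΔEx3 livers (adjusted p = 0.000971), and Dpysl2 fell by 2.22 ± 0.20 in β-catΔEx3:Myc (adjusted p = 3.01e-05). With slide as a block 2 genes were called higher and 5 lower in β-catΔEx3:Myc, and 1 higher and 1 lower in β-catΔEx3. Gipc1 and Dpysl5 were still called in either mutant, and Fyn and Dpysl2 in β-catΔEx3:Myc, while Rras was lost in β-catΔEx3:Myc (0.47, adjusted p = 0.372) and β-catΔEx3 (0.50, adjusted p = 0.354), and Fyn in β-catΔEx3 (adjusted p = 0.0615).

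Neuropilins are shared with vascular endothelial growth factors. Of 8 genes of these ligands and receptors, 1 rose and 3 fell in β-catΔEx3:Myc, and 1 rose and 1 fell in β-catΔEx3 livers. Calls over all items were 42.4% in β-catΔEx3:Myc and 37.1% in β-catΔEx3. Vegfd, a ligand of lymphatic growth, rose 4.27-fold in β-catΔEx3:Myc (limma, adjusted p = 0.000299) and 4.01-fold in β-catΔEx3 livers (adjusted p = 0.000794), and Vegfc, its close relative, fell by 1.13 ± 0.20 in β-catΔEx3:Myc (adjusted p = 0.00158) and fell by 1.16 ± 0.22 in β-catΔEx3 livers (adjusted p = 0.00263). Flt4, the receptor of both, fell by 2.03 ± 0.30 and Flt1 by 0.98 ± 0.28 in β-catΔEx3:Myc (adjusted p = 0.000531 and 0.0175). Flt4 was well above background on only 2 of 4 β-catΔEx3:Myc arrays. All 4 calls in β-catΔEx3:Myc were lost under the slide block, with Vegfd at an adjusted p of 0.0511, Vegfc at 0.147, Flt4 at 0.136 (-1.44) and Flt1 at 0.489 (-0.41). In β-catΔEx3 Vegfd was still called (adjusted p = 0.047) and Vegfc was lost (adjusted p = 0.127).

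Likeness of pattern was measured as the root mean square difference of centred log2 profiles over the 11 arrays, among about 12154 named genes above background on all mutant arrays. It describes these arrays, which share groups and slides. Nearest to Sema3b were Gsta2 (0.54 log2 units), Fndc10 (0.65), Dppa5a (0.67), Mogat2 (0.71) and Abcc4 (0.72). Gsta2 is a glutathione transferase and Abcc4 an efflux transporter. Nearest to Plxnd1 were Ldb2 (0.18), Icam2 (0.19) and She (0.19), to Nrp1 Ehd3 (0.29), Maf (0.31) and Pxdn (0.31), and to Nrp2 Ppm1m (0.16), Armcx1 (0.16) and Tspan14 (0.17). Nearest to Sema3d were Ifitm1 (0.40), Plac9a (0.43) and Slco2a1 (0.44), and to Sema3c Rarb (0.29), 5031439G07Rik (0.33) and Nr1i3 (0.34). Sema3d itself was not well above background on any mutant array. Genes as dim there as Sema3d were left out of the candidates, so closer patterns may exist.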

How the data were processed

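Per the file headers, the authors read each array with Agilent Feature Extraction 10.7.1.1 and deposited processed signals as background-subtracted intensity. They also deposited a log2 matrix of the same arrays, quantile normalized, used as an alternative. Each of 55681 probes was averaged over its spots, outlier spots left out (95 probe values lost, none of the genes described), and scaled by the 75th percentile of each array. Probes had to pass as well above background on 3 arrays (29697 did), and the brightest probe stood for a gene. A RefSeq table gave the symbols of the probes' accessions. limma 3.58.1 in R 4.3.3 fitted 3 group means to all 11 arrays, and the fit was tested on simulated data. Alternatives changed the scaling, background correction, dim-probe filter, choice of probe or slide block, or left out single arrays. Normexp was to use mean signals but was run on median signals, with offset 50, as the files used here hold no mean.

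The genes and all lists were chosen with earlier results of these data known. Named list genes are up to 3 (markers up to 2) called genes with the largest change in each direction, of which the text gives a subset chosen after seeing values. Sample titles carry separate numbers, taken here as separate mice. Otherwise p-values measure only the spread between samples. A result on a withheld item is not reported here.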

Additional observations from a re-analysis of the deposited data

Results flagged for a closer look

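In 5 of 28 groups of 4 arrays examined over the 14 probes, the highest or lowest array lay farther from its neighbour than the 95% critical value of Dixon's test allows. Chance alone gives this in about 5% of groups. The third β-catΔEx3:Myc array was lowest for Plxnd1, at 1.55, and the same array stands apart from its group on the second principal component. The first β-catΔEx3:Myc array was lowest for Sema3c, at -4.59, and was not well above background there. WT replicate 3 was highest for Sema3f, at 2.51. The other 2 values were in the background: β-catΔEx3:Myc replicate 4 for a Sema3a probe, at -5.83, and WT replicate 4 for the second Sema3c probe, at -5.59.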

How the results depend on the processing

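Of 216 differences of single genes recomputed under other processing, 195 kept their side of the threshold or their size, and of 264 recomputed with 1 array left out, 252 did. The count without Sema3d, given with the results, was added after seeing the data. The number of genes called in β-catΔEx3:Myc against WT was 3 with slide as a fixed block and 5 to 6 with single arrays left out. In β-catΔEx3 against WT it was 4 with the quartile taken over probes above background on all arrays, 1 with the slide block, and 2 to 4 with single arrays left out, reaching 4 without β-catΔEx3 replicate 3. Between the mutants it was 1 under normexp, under the filter of probes above background in a whole group, with the mean of probes, and with slide as a fixed or a random block (consensus correlation 0.0931). It was 0 with any single array left out. The gene was Nrp1 under the fixed block and Nrp2 in the other 4. For Sema3b, β-catΔEx3:Myc minus WT was 4.95 under normexp, 6.15 with the block and 6.74 to 7.32 with arrays left out, and β-catΔEx3 minus WT was 5.97 under normexp, 7.31 with the block and 7.75 to 8.39 with arrays left out. Sema3c in β-catΔEx3:Myc minus WT was 0.032 with the block, against -0.17 without it, and ran from -0.32 to 0.19 with arrays left out (0.031 without WT replicate 3 and 0.19 without β-catΔEx3:Myc replicate 1). Sema3d between the mutants was -0.57 and ran from -0.89 to 0.065, the last without β-catΔEx3 replicate 3, all at background signal. The cause of these changes was not tested. The quartile over probes above background gave a median of all items of -0.012 in β-catΔEx3:Myc and -0.085 in β-catΔEx3 against WT, beside 0.14 in β-catΔEx3:Myc and 0.10 in β-catΔEx3 in the analysis as reported. Precision is limited by 3 or 4 arrays a group, by WT arrays that share a slide, and by dim probes of Sema3c, Sema3d and Sema3e. No paired analysis was possible because the labels number no replicates, and the numbers used here only follow the order of the samples. Slide was used as the block instead.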

Other observations

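Sema3b and Sema3f lie near each other on mouse chromosome 9. Of the 10 protein-coding genes nearest to Sema3b, 5 on each side, 8 were tested. Ifrd2 was higher in β-catΔEx3:Myc (0.70, limma, adjusted p = 0.0034) and in β-catΔEx3 (0.66, adjusted p = 0.00872), and Sema3f was lower in β-catΔEx3:Myc, as given above. The other 6 were called in neither comparison with WT, Gnai2 next to Sema3b among them (0.11 in β-catΔEx3:Myc, adjusted p = 0.552, and 0.23 in β-catΔEx3, adjusted p = 0.231). Among all items tested, 42.4% were called in β-catΔEx3:Myc and 37.1% in β-catΔEx3, so most items were called in neither direction. The 8 differences ran from -0.60 to 0.70 in β-catΔEx3:Myc and from -0.49 to 0.66 in β-catΔEx3. These neighbours were looked up after the values of Sema3b were known.

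Among markers of cell types rarer in liver, Lrrn4, a mesothelial marker, rose in β-catΔEx3 livers (2.96 ± 0.65, limma, SE, adjusted p = 0.00544), the only call among 5 tested mesothelial markers. Lrrn4 was well above background on only 1 of 4 WT arrays. Among the Schwann and nerve markers reported here, Ncam1 fell by 1.28 ± 0.27 in β-catΔEx3:Myc (adjusted p = 0.00354), where it was well above background on 2 of 4 arrays, and none was called in β-catΔEx3. Of 6 tested biliary markers, Spp1 fell by 2.49 ± 0.45 in β-catΔEx3:Myc (adjusted p = 0.00164) and Krt19 rose by 0.93 ± 0.32 in β-catΔEx3 (adjusted p = 0.0444). None of these 4 calls passed with slide as a block.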
